A study of Mus musculus with 6 samples.

Results

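Cytosolic ribosomal protein genes encode the proteins of the ribosome that translates nuclear mRNA. Members were the protein-coding rows of the count matrix whose symbols start with Rpl or Rps and a digit, together with Rplp0, Rplp1, Rplp2 and Rpsa, without symbols holding -ps and without the Rps6k kinases. The rule found 86 of 55401 rows, 34 with small subunit symbols and 52 with large subunit symbols. Of these, 77 encode core ribosomal proteins. The other 9 are paralogs (Rpl3l, Rpl7l1, Rpl10l, Rpl22l1, Rpl36al, Rpl39l, Rps27l and Rps27rt) and Rps19bp1, whose product binds RPS19 and is not part of the ribosome.

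The libraries were made from CD11b-selected brain cells, 3 from MRL/lpr mice and 3 from MRL/mpj mice, all untreated and 6 weeks old. The lpr mutation disrupts Fas, and MRL/lpr mice, which carry it, develop a lupus-like disease. MRL/mpj is the matching strain with intact Fas. CD11b marks microglia but also other myeloid cells, and the paper gives as many mice as libraries for each strain, without tying a library to an animal. The paper's methods describe female mice, without giving the sex of the animals behind these libraries.

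A ribosome carries each of its proteins in a fixed ratio, and excess copies are degraded, so the mRNAs of this class are made in step with each other. Most begin with a run of pyrimidines at the cap, the terminal oligopyrimidine or TOP motif, through which LARP1 and mTOR set their translation. Ribosomal protein mRNAs have also left the genome with many processed pseudogenes, intronless copies of the mRNA inserted elsewhere. A short read from the mRNA can therefore fit the gene and its copies almost equally well.

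In MRL/lpr libraries the ribosomal protein genes as a class lay close to their level in MRL/mpj libraries, with a median log2 fold change of -0.09. A few rows stood apart: Rpl30, Rpl26, Rps2, Rpl35a and Rpl14 fell by 1.06 to 2.63 on the log2 scale, and Rplp0 fell by 0.74 on the log2 scale. For all of these except Rpl35a, the nearly identical pseudogene rows, summed, had a mean level that differed in the opposite direction. With the nearly identical rows added, these 6 genes had log2 fold changes between -0.26 and 0.20. For Rps2 the opposite difference was absent in MRL/lpr replicate 2, and some single copies of Rps2 and Rpl30 fell.

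The sequences below show how little separates some of these rows. Each pair gives the same 60 bases of the coding sequence, 5′ to 3′, first of the gene and then of the pseudogene row. The stretch was chosen as one without gaps that holds the most differences, which are in capitals. Positions are counted from 1 at the A of the start codon. Coordinates are those of GENCODE M21 on GRCm38.

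Rplp0 (coding bases 388 to 447, chr5:115561168-115561227, plus strand): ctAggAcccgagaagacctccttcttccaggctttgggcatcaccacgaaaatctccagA
Gm8730 (chr8:102865352-102865411, minus strand): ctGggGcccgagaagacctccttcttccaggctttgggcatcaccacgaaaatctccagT
Rpl30 (coding bases 66 to 125, chr15:34442677-34442736, minus strand): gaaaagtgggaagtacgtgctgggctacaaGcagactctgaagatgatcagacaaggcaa
Gm12191 (chr11:49678933-49678992, minus strand): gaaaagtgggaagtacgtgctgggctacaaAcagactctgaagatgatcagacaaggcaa
Rpl26 (coding bases 147 to 206, chr11:68902421-68903216 across an intron, plus strand): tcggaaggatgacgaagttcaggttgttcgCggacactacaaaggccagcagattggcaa
Gm15772 (chr5:3236577-3236636, plus strand): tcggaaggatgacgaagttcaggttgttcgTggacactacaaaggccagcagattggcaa
Rpl14 (coding bases 391 to 450, chr9:120574131-120574190, plus strand): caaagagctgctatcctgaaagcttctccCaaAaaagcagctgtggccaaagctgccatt
Rpl14-ps1 (chr7:45325355-45325414, plus strand): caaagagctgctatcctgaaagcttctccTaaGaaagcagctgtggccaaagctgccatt
Rpsa (coding bases 184 to 243, chr9:120129208-120129267, plus strand): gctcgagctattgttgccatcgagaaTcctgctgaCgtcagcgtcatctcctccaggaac
Rpsa-ps10 (chr3:150073300-150073359, minus strand): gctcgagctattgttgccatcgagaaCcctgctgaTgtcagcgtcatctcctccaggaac

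Over the whole coding sequence, Gm12191 differed from Rpl30 at 1 of 348 aligned bases and Gm15772 from Rpl26 at 2 of 438. Rpl14-ps1 differed from Rpl14 at 4 of 651 aligned bases, with a further 3 bases in gaps, and Rpsa-ps10 differed from Rpsa at 6 of 885. Gm8730 differed from Rplp0 at 12 of 954. These are reference bases, and the genome of the MRL strains was not analysed here.

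Total counts ran from 45481609 to 49846634 per library. A single noncoding row, CT010467.1, made up 6.38% of MRL/lpr replicate 3 and 0.169% to 0.457% of the other libraries. Mitochondrial genes made up 3.06% to 3.49% in MRL/lpr against 5.84% to 6.38% in MRL/mpj. MRL/lpr replicate 3 also stood apart for the ribosomal protein genes, with a median deviation of 0.14 (log2) from the mean of its strain. Xist, the RNA of the inactive X chromosome, had 8886 to 11319 counts in MRL/lpr against 27 to 38 in MRL/mpj, so strain and sex cannot be told apart in these values. The labels do not say that the 3 libraries of a strain came from separate animals, and p-values cover the spread between these libraries.

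Ribosomal protein genes took 1.21%, 1.18% and 1.31% of counts in MRL/lpr and 1.5%, 1.45% and 1.37% in MRL/mpj. The means were 1.23% ± 0.0681 and 1.44% ± 0.0656 (SD, n = 3). The strains did not overlap, but the highest MRL/lpr value and the lowest MRL/mpj value lay within 1 SD of each other, and with 3 libraries against 3 an exact permutation test cannot give a p below 0.1. Rows nearly identical to these genes took a further 0.381% ± 0.0265 and 0.385% ± 0.028 (SD, n = 3). These rows made up 23.6% ± 0.404 of the counts of gene and copies together in MRL/lpr and 21.1% ± 0.458 in MRL/mpj (SD, n = 3). In bulk RNA, fewer cells of a type and less RNA per cell cannot be told apart, and the mitochondrial share named above moved with the strain as well.

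**Figure D1:**
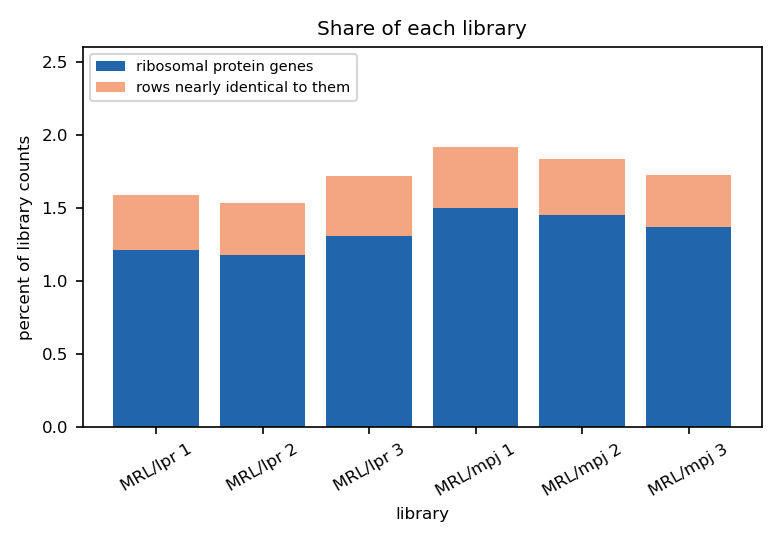
Percent of the library's counts (y axis) in the 86 ribosomal protein genes (blue) and in rows nearly identical to them (orange), for each of the 6 libraries (x axis). The blue bars run from 1.18% to 1.31% in MRL/lpr and from 1.37% to 1.5% in MRL/mpj, and the orange parts are alike in both strains.

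Of the 86 genes, 84 had enough counts to be tested among 19554 genes. By the adjusted p-value alone (quasi-likelihood test of edgeR, adjusted over all genes by the method of Benjamini and Hochberg, threshold 0.05), 1 ribosomal protein gene was higher and 10 were lower in MRL/lpr. That is 13.1% of those tested, against 20.2% of all genes, of which 11.1% were higher and 9.06% lower. With a log2 fold change of at least 1 in size as well, 5 were lower and none was higher, or 5.95% against 8.34% of all genes (4.67% higher and 3.66% lower). At an unadjusted p under 0.05, 3 were higher and 15 were lower, but the share of all genes at this threshold was not taken. Lower calls made up 11.9% of the genes tested by adjusted p and 5.95% with the fold-change minimum, against 9.06% and 3.66% of all genes. Higher calls made up 1.19% and none, against 11.1% and 4.67% of all genes. These differences in share were not tested. With nearly identical rows added, lower calls by adjusted p made up 3.57%, below the 9.27% of all features.

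The fold changes were mostly small and leaned to the negative side. The middle 50% of the 84 log2 fold changes lay between -0.20 and 0.00, against -0.32 and 0.33 for all genes, whose median was -0.01. Negative values numbered 62 and positive values 22. The strains did not overlap in 4 genes with higher values in MRL/lpr (19.6% of all genes) and in 19 with lower values, the latter 22.6% of those tested against 19.4% of all genes (39.0% in either direction). Scaling by library size only, without TMM, moved the median of all genes to -0.13 and that of the ribosomal protein genes to -0.21. The gap between the medians was -0.08 under both scalings, but the signs became 75 negative and 9 positive, and the calls 0 higher and 23 lower. Without MRL/lpr replicate 3, 2 were higher and 21 lower, and without MRL/mpj replicate 1, 5 were lower. The shares of all genes called under these other settings were not taken.

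By subunit, the shares of all genes to read the counts against are again 11.1% higher and 9.06% lower. Of 34 small subunit genes, 1 was higher (2.94%) and 3 were lower (8.82%), with a median log2 fold change of -0.09. Of 50 large subunit genes tested, none was higher and 7 were lower (14%), with a median of -0.08. The difference between the subunits was not tested. Per length, the median gene of the small subunit stood at 63.7 FPKM in MRL/lpr and 78.1 in MRL/mpj, and that of the large subunit at 59.8 and 70.0. The median FPKM values are not TMM-scaled. By position in the ribosome, 1 of 4 proteins of mRNA entry and decoding was lower (Rps2), none of 4 of the mRNA exit and platform and none of 8 of the beak and head was called, and 1 of 9 beside the peptide exit tunnel was lower (Rpl26).

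Rplp0 encodes the core protein of the P stalk, the arm of the large subunit that recruits elongation factors. Its row (ENSMUSG00000067274, chr5:115559467-115563727) had 10626, 10008 and 10339 counts in MRL/lpr against 19881, 19098 and 19521 in MRL/mpj. The strains did not overlap, and the log2 fold change was -0.74 (SE 0.07, adjusted p = 7.9e-05). Gm8730 (chr8:102864845-102865798), a processed pseudogene row with 98.74% identity to the mRNA, had 7402, 7542 and 8172 counts in MRL/lpr against 462, 499 and 480 in MRL/mpj. Its log2 fold change was 4.19 (SE 0.11, adjusted p = 7.76e-08). Gm9625 (chr13:67810246-67811200), a further copy, had a log2 fold change of 4.20 with 1588 to 1843 counts against 69 to 133. Gene and copies together gave 19796, 19168 and 20408 counts in MRL/lpr and 20469, 19681 and 20149 in MRL/mpj. On the log2 scale this sum differed by 0.16 (SE 0.08, adjusted p = 0.194), and the sums overlapped as deposited but not after TMM scaling. The Rplp0 row held 52.2% of the summed counts in MRL/lpr and 97.0% in MRL/mpj.

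Rpl30, a large subunit protein that also binds its own transcript, had the largest decrease. Its row (ENSMUSG00000058600, chr15:34440505-34443640) had 1501, 789 and 1235 counts in MRL/lpr and 9448, 8544 and 6730 in MRL/mpj, with a log2 fold change of -2.63 (SE 0.28, adjusted p = 0.00171). The row of the pseudogene Gm12191 (chr11:49678710-49679057) had 6805, 7489 and 6813 counts in MRL/lpr and 2371, 1959 and 3028 in MRL/mpj, a log2 fold change of 1.70 (SE 0.14, adjusted p = 3.34e-05). Each strain was separate from the other in both rows, in opposite directions. Summed over the gene and 12 nearly identical rows, the counts were 8482, 8435 and 8218 against 12306, 11090 and 10270. The sum had a log2 fold change of -0.25 (SE 0.08, adjusted p = 0.0681), which passed the threshold without MRL/lpr replicate 3 (adjusted p = 0.0375) and without MRL/mpj replicate 3 (adjusted p = 0.0355). Not all copies rose: Rpl30-ps10 fell by 2.32 and Rpl30-ps1 by 2.30 on the log2 scale, both from at most 289 counts.

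Rpl26 sits beside the peptide exit tunnel. Its row (ENSMUSG00000060938, chr11:68901583-68906989) had 1593, 1146 and 1475 counts in MRL/lpr and 5853, 5406 and 5415 in MRL/mpj, a log2 fold change of -1.80 (SE 0.13, adjusted p = 1.78e-05). Gm15772 (chr5:3236431-3236868) had 6042, 6393 and 6425 counts against 4931, 4652 and 5128, and rose by 0.54 (SE 0.08, adjusted p = 0.00139). The gene fell more than the copy rose, and the summed counts were 7853, 7796 and 8114 against 11123, 10383 and 10759. The sum had a log2 fold change of -0.26 (SE 0.08, adjusted p = 0.0395) and was no longer called without any library other than MRL/lpr replicate 3, with adjusted p-values of 0.0905 to 0.135.

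Rpl14 encodes a protein on the outer face of the large subunit. Its row (ENSMUSG00000025794, chr9:120571444-120574654) had 1934, 3554 and 3275 counts in MRL/lpr and 6900, 7001 and 6899 in MRL/mpj, with a log2 fold change of -1.06 (SE 0.24, adjusted p = 0.0269). Its only nearly identical row, Rpl14-ps1 (chr7:45324965-45325617), had 6993, 6161 and 5982 against 4918, 3783 and 3555 counts and rose by 0.82 (SE 0.12, adjusted p = 0.00119). In MRL/lpr replicate 1 the gene was lowest and the copy highest. The sum had a log2 fold change of -0.07 (SE 0.08, adjusted p = 0.63). Without any library other than MRL/lpr replicates 1 and 2 the call of the Rpl14 row was lost, with adjusted p-values of 0.0672 to 0.074, as it was with no low count filter (adjusted p = 0.0809).

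Rps2 lies at the entry of the mRNA into the small subunit. Its row (ENSMUSG00000044533, chr17:24718116-24721929) had 1265, 944 and 975 counts in MRL/lpr and 3549, 2671 and 2874 in MRL/mpj, a log2 fold change of -1.34 (SE 0.14, adjusted p = 0.000136). Its 26 nearly identical rows hold most of the counts, so the gene's row made up 8.42% of the sum in MRL/lpr and 24.0% in MRL/mpj. These rows went separate ways. Rps2-ps13 fell by 0.89 (SE 0.24, adjusted p = 0.0494), while Gm6311 rose by 1.20 (SE 0.13, adjusted p = 0.000197) and Gm10420 by 1.92 (SE 0.27, adjusted p = 0.000893). Rps2-ps10 had 8145, 111 and 7664 counts in MRL/lpr against 1522, 1573 and 1438 in MRL/mpj, so that MRL/lpr replicate 2 stood far below both. The sums were 14961, 6249 and 16614 against 13375, 12299 and 12147 counts. Their log2 fold change was 0.20 (SE 0.43, adjusted p = 0.815) with all libraries, 0.53 (SE 0.10, adjusted p = 0.0101) without MRL/lpr replicate 2, and -0.13 (SE 0.45, adjusted p = 0.897) without MRL/lpr replicate 3.

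Rpl35a and Rpl15, both large subunit proteins, also fell, Rpl15 being named after its values were seen. Rpl35a (ENSMUSG00000060636, chr16:33056453-33060189) had 1249, 713 and 1401 counts in MRL/lpr and 2681, 2861 and 2663 in MRL/mpj, and fell by 1.09 (SE 0.27, adjusted p = 0.034). Its nearly identical rows stood at 119.1 CPM in both strains, so here no opposite change was seen. The sum differed by -0.26 (SE 0.09, adjusted p = 0.0622). The Rpl35a call was lost without MRL/lpr replicate 1 and without any of the MRL/mpj libraries, with adjusted p-values of 0.0784 to 0.104, with no low count filter (adjusted p = 0.1) and after a length and GC correction (adjusted p = 0.0719). Rpl15 (ENSMUSG00000012405, chr14:18267823-18271391) had 2639, 2998 and 2670 against 4736, 4550 and 4326 counts and fell by 0.54 (SE 0.08, adjusted p = 0.00178). Among its copies Gm10020 rose by 1.71 and Rpl15-ps2 by 1.97, and the sum had a log2 fold change of -0.06 (SE 0.07, adjusted p = 0.653).

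Rpsa, a small subunit protein also known as the laminin receptor precursor, was the only ribosomal protein gene called higher. Its row (ENSMUSG00000032518, chr9:120127689-120132369) had 17835, 17146 and 17610 counts in MRL/lpr and 17160, 15222 and 15189 in MRL/mpj, or 388 ± 29.6 and 310 ± 21.6 CPM after TMM scaling (SD, n = 3). The log2 fold change was 0.32 (SE 0.08, adjusted p = 0.0166), and it was 0.20 with an adjusted p of 0.0791 when scaled by library size only. The call was also lost without MRL/mpj replicate 2 (adjusted p = 0.0798) and without MRL/mpj replicate 3 (adjusted p = 0.0797). Rpsa-ps10 (chr3:150072658-150073542) moved the other way, with 1125, 965 and 1023 counts against 3304, 3221 and 3304 and a log2 fold change of -1.48 (SE 0.09, adjusted p = 6.72e-06). The sum over Rpsa and its copies had a log2 fold change of 0.13 (SE 0.08, adjusted p = 0.292).

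**Figure D2:**
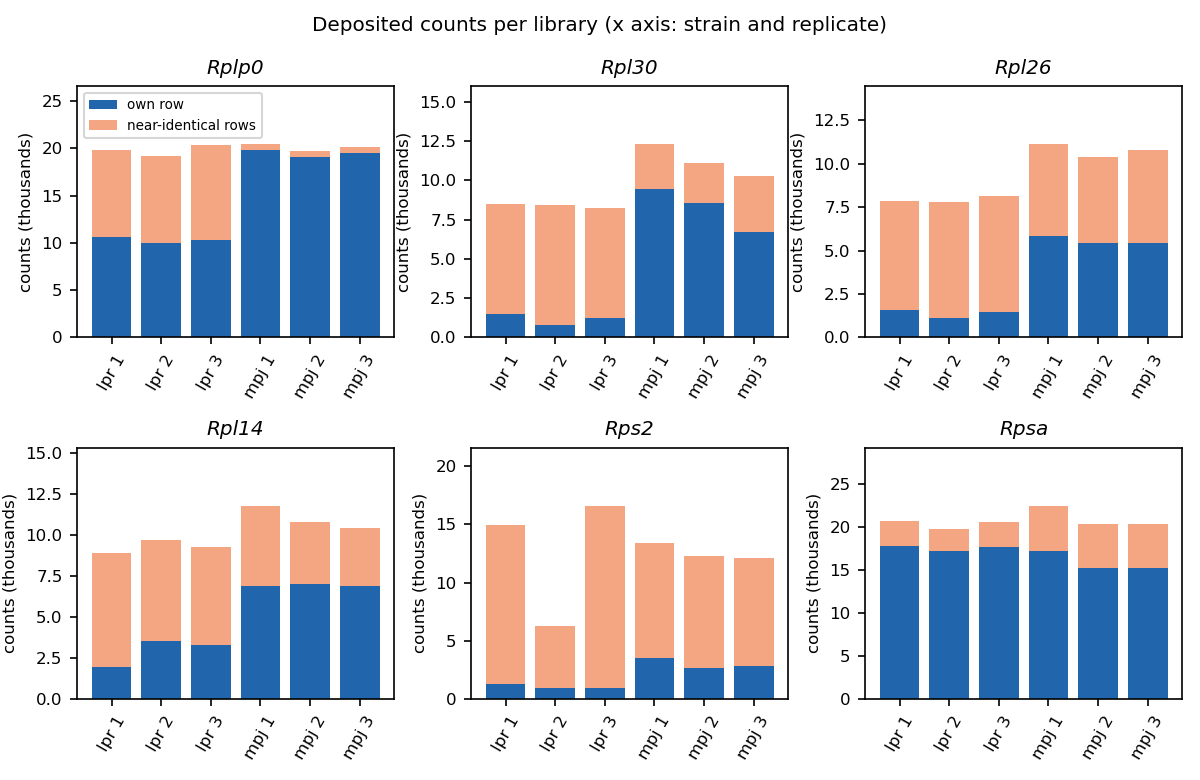
Deposited counts (y axis, in the unit marked on it) of 6 genes in each library (x axis, strain and replicate), with the gene's own row in blue and its nearly identical rows stacked in orange. The boundary between the colours moves between the strains much more than the height of the bars does for Rplp0. For Rpsa, boundary and height both overlap between the strains. The Rps2 bar of MRL/lpr replicate 2 (6249 counts) is the lowest of its panel.

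Rps9, Rpl27 and Rps3a1 were lower by smaller amounts, Rps9 and Rpl27 being named after their values were seen. Rps9 (ENSMUSG00000006333), a small subunit protein, had 14841, 15200 and 14921 counts against 22433, 20565 and 20506, a log2 fold change of -0.32 (SE 0.07, adjusted p = 0.0112). Almost all of its counts were in its own row, 98.8% in MRL/lpr and 97.6% in MRL/mpj, and the sum gave -0.34 (SE 0.07, adjusted p = 0.00931). No other called gene had as large a part of its counts in its own row in MRL/lpr. Rpl27 (ENSMUSG00000063316), a large subunit protein, had 4153, 4050 and 4297 counts against 6365, 5588 and 5601, with -0.31 for the row (SE 0.09, adjusted p = 0.0424) and for the sum (SE 0.09, adjusted p = 0.0454). Rps3a1 (ENSMUSG00000028081), also of the small subunit, had 15410, 14646 and 12112 counts against 20039, 18703 and 19449. Its log2 fold change was -0.29 (SE 0.07, adjusted p = 0.0114) for the row and -0.18 (SE 0.06, adjusted p = 0.0576) for the sum. The Rps9 row missed the threshold without MRL/lpr replicate 1 (adjusted p = 0.0504) and without MRL/mpj replicate 1 (adjusted p = 0.0585). The Rps3a1 row missed it without MRL/mpj replicate 1 (adjusted p = 0.0585), and the Rpl27 row was called only without MRL/lpr replicate 3 among the fits that left out 1 library.

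The same comparison was then made on sums for the whole class, a choice made after the rows were seen. A row was taken as nearly identical to a gene at 95% identity or more over at least 150 bases and 80% of the row's exon length. Rows of the 86 genes themselves were left out of this search, so Rps27 and its copy Rps27rt, for example, were not summed with each other. There were 594 such rows for 78 of the 86 genes, 583 of them annotated as pseudogenes and 10 as protein coding. Of the 335 that could be tested, 14 were higher and 15 lower, or 8.66%. In the table of sums, with 19219 features tested, 3 ribosomal protein genes were lower (Rps9, Rpl27 and Rpl26) and none was higher by adjusted p, against 20.6% of all features in either direction and 9.27% lower. The 3 make up 3.57%. None passed the fold-change minimum as well, against 8.38% of all features (3.67% lower). At an unadjusted p under 0.05, 1 sum was higher and 12 were lower. DESeq2 called 1 sum higher and 6 lower. The shares of all features were not taken for these counts.

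The sums ran from -0.34 to 0.50 on the log2 scale, where the own rows had run from -2.63 to 0.61. Their median was -0.08, against -0.01 for all features. The lower calls depended on single libraries and on scaling: there were 18 without MRL/lpr replicate 3, 0 without MRL/mpj replicate 1, 1 each without MRL/lpr replicate 1, MRL/lpr replicate 2 and MRL/mpj replicate 2, and 24 with library-size scaling. Of the 11 genes whose own row was called, 8 had copies whose summed CPM differed in the opposite direction. The same was so for 23 of the 66 genes with copies whose row was not called. How reads were placed between a gene and its copies was not tested, since the reads were not used here.

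**Figure D3:**
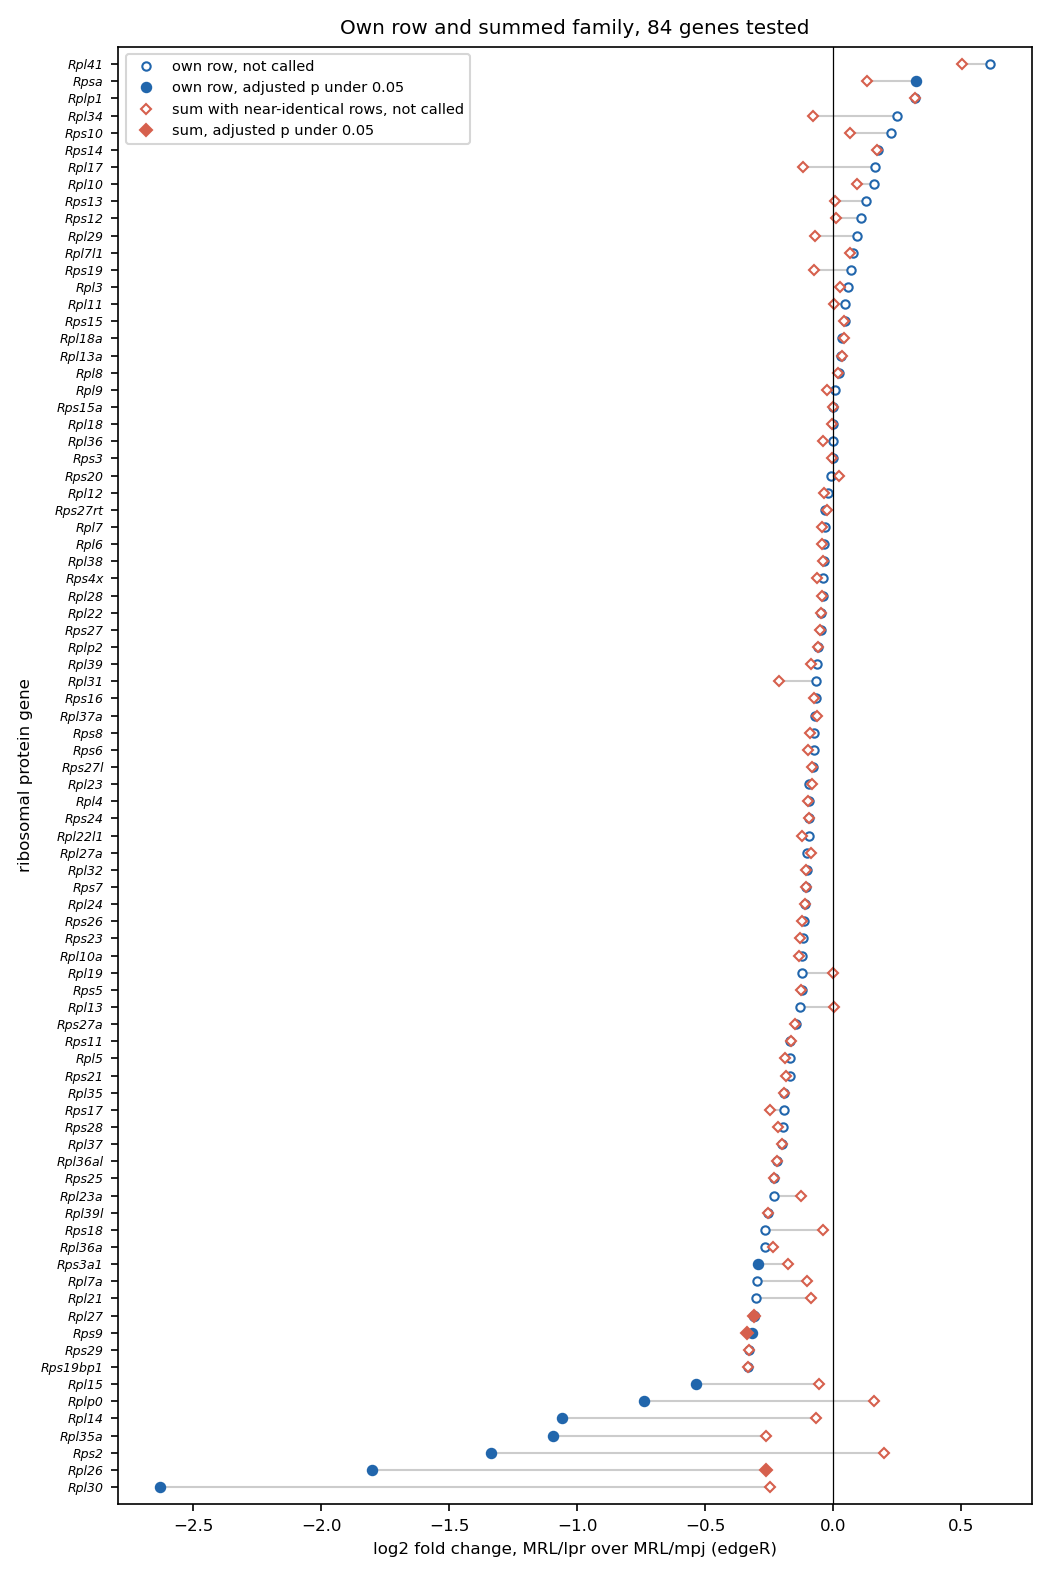
Log2 fold change of MRL/lpr over MRL/mpj (x axis) for the 84 ribosomal protein genes tested (y axis), for the gene's own row (blue circles) and for the sum with nearly identical rows (red diamonds), filled where the adjusted p was under 0.05. The long lines at the bottom join the 5 lowest rows, at -2.63 to -1.06, to sums between -0.26 and 0.20.

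In some genes the row holds almost nothing of the family. The Rpl21 row held 1.88% of the summed counts in MRL/lpr and 2.16% in MRL/mpj, with 131 to 260 counts beside 9044 to 11957 in the sum over 60 nearly identical rows. Rpl29 held 1.69% and 1.53%, Rps18 13.1% and 15.2%, and Rpl34 14.5% and 11.4%. All are constitutive ribosomal proteins, and none of their rows or sums was called. Over all genes, the own row held under 20% of the sum in 4 genes and under 50% in 10. A level read from the row alone covers only this part of the summed counts.

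Replicates varied in the same way. Rps13, a small subunit protein, had 2660, 4327 and 3923 counts in MRL/lpr, while its sums were 4924, 4882 and 4890. Rpl31, at the exit tunnel, had 8362, 5229 and 8465 counts in the MRL/mpj libraries, while its sums were 9901, 8928 and 9093. In MRL/mpj replicate 2, where the Rpl31 row was low, Rpl31-ps8 had 3032 counts, and it had 1146 and 480 in replicates 1 and 3. The row and the copy thus differed in opposite directions between libraries of the same strain. The coefficient of variation of Rps13 in MRL/lpr was 26.0% for the row and 6.93% for the sum, and that of Rpl31 in MRL/mpj was 23.4% and 5.36%. Over the genes tested, the median coefficient of variation was 12.9% for rows and 9.46% for sums in MRL/lpr, and 6.41% and 6.21% in MRL/mpj. Values over 20% were found for 16 rows and 9 sums in MRL/lpr and for 7 rows and 4 sums in MRL/mpj. Not every gene varied less after summing. Rps2 had 14.6% for the row and 48.1% for the sum in MRL/lpr, and Rpl38 had 1.7% and 11.0% in MRL/mpj.

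**Figure D4:**
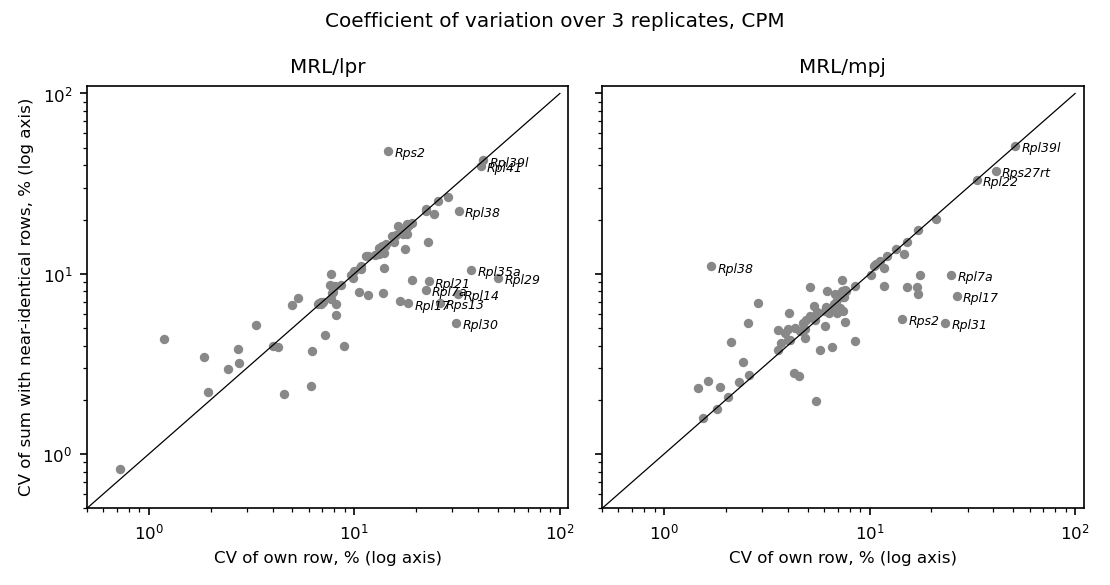
Coefficient of variation of CPM over the 3 replicates (log axes, in percent) for the gene's own row (x axis) and for the sum with nearly identical rows (y axis), with MRL/lpr on the left, MRL/mpj on the right and 1 point per gene. Points below the line, such as Rpl30 and Rps13 in MRL/lpr and Rpl31 in MRL/mpj, varied less after summing, and Rps2 in MRL/lpr (48.1% for the sum) lies above it.

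Per length, levels ranged widely between genes. Rplp1 had the highest mean, at 710 ± 89.7 FPKM in MRL/lpr and 621 ± 47.5 FPKM in MRL/mpj (SD, n = 3). Rps15, which reaches towards the decoding centre, stood at 322 ± 70.5 and 341 ± 6.75 FPKM, and Rps3a1 at 272 ± 24.5 and 361 ± 8.55 FPKM (SD, n = 3). Rps29, a zinc-binding protein of the small subunit head, stood at 236 ± 32.0 and 323 ± 15.7 FPKM, and Rpl4, which lines the exit tunnel, at 224 ± 6.06 and 261 ± 6.65 FPKM (SD, n = 3). In MRL/lpr only Rplp1 was clear of the others by more than the SDs, and Rps15, Rps3a1, Rps29 and Rpl4 lay within about 1 to 2 SDs of their neighbours. By edgeR's test on counts, Rps29 had a log2 fold change of -0.33 (SE 0.11, adjusted p = 0.0685), Rpl4 of -0.10 (SE 0.05, adjusted p = 0.276) and Rps15 of 0.04 (SE 0.16, adjusted p = 0.892). The Rps15 value rests on MRL/lpr replicate 3, with 12866 counts against 9296 and 9850, and without it the log2 fold change was -0.18 (adjusted p = 0.0268). Without the same library Rps29 was called too, at -0.47 (adjusted p = 0.000544).

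**Figure D5:**
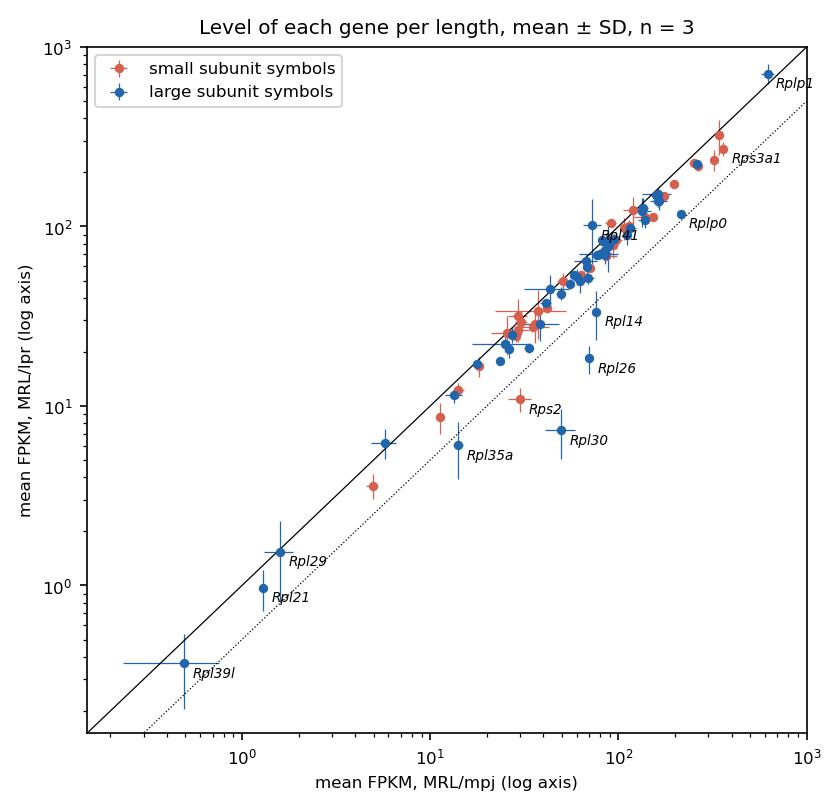
Mean FPKM of each tested gene in MRL/mpj (x axis) and MRL/lpr (y axis), both on log axes, with SD bars (n = 3) and colours for small and large subunit symbols. The solid line marks equal levels and the dotted line a 2-fold lower level in MRL/lpr; Rplp1 is highest, and Rpl30, Rpl26, Rps2, Rpl14 and Rpl35a lie below the dotted line.

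Of the other stalk proteins, Rplp1 had 18078, 17414 and 20550 counts in MRL/lpr and 17894, 17362 and 15795 in MRL/mpj, with a log2 fold change of 0.32 (SE 0.11, adjusted p = 0.0778). DESeq2 placed it just inside the threshold (adjusted p = 0.0386). Rplp2, its partner in the stalk dimer, had -0.06 (SE 0.10, adjusted p = 0.746), and Rpl12, at the stalk base, -0.02 (SE 0.07, adjusted p = 0.877). The partners of the 5S rRNA, which also bind Mdm2 when ribosome assembly fails, did not pass the test either. Rpl5 had 15751, 15551 and 12048 counts against 19214, 18150 and 17489 (log2 fold change -0.17, SE 0.08, adjusted p = 0.163), and Rpl11 had 9522, 8516 and 9334 against 9664, 11251 and 9068 (0.05, SE 0.11, adjusted p = 0.822).

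Rps6 and Rpl13a are read by pathways outside the ribosome, Rps6 as a target of S6 kinases and Rpl13a as part of an interferon-gamma-activated silencing complex. Rps6 had 15113, 14712 and 13713 counts against 18130, 16602 and 17183, with a log2 fold change of -0.08 (SE 0.06, adjusted p = 0.426). Rpl13a had 16521, 16239 and 17207 counts against 20018, 16838 and 18616, with 0.03 (SE 0.09, adjusted p = 0.85). Both differences were within 2 standard errors.

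The 4 genes on the X chromosome also missed the threshold. Rpl10 had 9746, 9234 and 8440 counts against 9170, 9180 and 9366, with a log2 fold change of 0.16 (SE 0.06, adjusted p = 0.0946) and no overlap after scaling. Rpl36a had 1555, 1678 and 1474 counts against 2271, 2019 and 2111, with -0.27 (SE 0.08, adjusted p = 0.054). Rps4x and Rpl39 had log2 fold changes of -0.04 (SE 0.07, adjusted p = 0.777) and -0.06 (SE 0.11, adjusted p = 0.754). Without MRL/lpr replicate 3, Rpl10 was called at 0.16 (adjusted p = 0.0362). With library-size scaling, Rpl36a was called at -0.39 (adjusted p = 0.0114).

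None of the 7 paralogs and non-core genes that could be tested was called. Rpl10l, a testis paralog of Rpl10, had 0 counts in each library, and Rpl3l, a muscle paralog of Rpl3, had 8 counts in MRL/mpj replicate 2 and none elsewhere. A count of 0 allows up to 3 counts per library, in counting error only, so no difference was detectable for either at this depth. Rpl39l had 25, 10 and 16 counts against 11, 23 and 35. Rps27l, a p53-induced paralog, had 539, 595 and 462 counts against 633, 662 and 606, with a log2 fold change of -0.08 (SE 0.13, adjusted p = 0.726). Rpl22l1 stood at 11.5 ± 1.13 and 13.4 ± 1.42 FPKM, against 22.2 ± 2.10 and 24.9 ± 8.28 FPKM for Rpl22 (SD, n = 3). Rpl36al had -0.22 (SE 0.10, adjusted p = 0.186), Rpl7l1 0.08 (SE 0.07, adjusted p = 0.524) and Rps19bp1 -0.33 (SE 0.20, adjusted p = 0.302). Rps27rt is an intronless copy whose coding sequence matches that of Rps27 at all 255 bases. These 574, 922 and 517 counts in MRL/lpr and 1004, 880 and 417 in MRL/mpj beside 5202 to 7028 for Rps27 therefore cannot be assigned by coding bases. Rps27l differs from Rps27 at 61 of 255 bases. The 60 bases below were chosen for holding the most differences, 19, which are in capitals.

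Rps27 (coding bases 10 to 69, chr3:90213239-90213298, minus strand): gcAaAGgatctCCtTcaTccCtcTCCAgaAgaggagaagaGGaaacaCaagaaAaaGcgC
Rps27l (chr9:66946834-66946893, plus strand): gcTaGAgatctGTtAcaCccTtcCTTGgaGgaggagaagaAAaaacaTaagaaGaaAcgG

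Rpl41 encodes the shortest ribosomal protein, of 25 residues, and was singled out after its values were seen. It had 7116, 3647 and 7986 counts in MRL/lpr and 4900, 4966 and 4149 in MRL/mpj, with MRL/lpr replicate 2 below every other library. Its log2 fold change was 0.61 (SE 0.35, adjusted p = 0.309), the largest positive value of the class, and 0.90 (adjusted p = 0.00232) without MRL/lpr replicate 2. The sum with the nearly identical lincRNA row Gm10076 gave 0.50 (SE 0.33, adjusted p = 0.376), and 0.78 (SE 0.13, adjusted p = 0.00506) without that library. The same library held the low count of Rps2-ps10.

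Promoters were looked at because the class is known for a shared start site. RefSeq entries of 250 bases before to 50 after the start (GRCm38.p6) matched 66 of the 86 genes, with 78 promoters. A run of at least 8 bases of C or T touching the 5 bases on either side of the start stood in 30.8% of them, against 9.7% of all 32851 promoters. The rule leaves out shorter runs and does not require the run to hold the start base, so it does not give the share with a TOP motif. The windows below show 30 bases around the start of genes discussed above, with the run in capitals. Of the entries of Rpl35a the one with the longest run is shown. The run of Rpl4 goes on before its window and ends before the start.

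Rpl15 (chr14:18270972-18271001, minus strand): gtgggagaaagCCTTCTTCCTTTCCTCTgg
Rpl14 (chr9:120571502-120571531, plus strand): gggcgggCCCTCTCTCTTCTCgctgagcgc
Rpl35a (chr16:33056467-33056496, plus strand): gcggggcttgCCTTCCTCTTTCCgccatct
Rpl4 (chr9:64173372-64173401, plus strand): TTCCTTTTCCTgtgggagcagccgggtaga
Rplp0 (chr5:115559452-115559481, plus strand): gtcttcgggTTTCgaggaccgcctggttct

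The run had 17 bases in Rpl15 and 4 in Rplp0. CCGGAAG, a core of ETS factor motifs, occurred on either strand in 34.6% of the promoters of the class and 8.9% of all promoters, AAGATGG (part of YY1 motifs) in 15.4% and 6.3%, and TATAAA in 9.0% and 13.6%. Genes with and without the long run had close median changes of the sums, and differences between them were not tested. The 24 genes with the run had a median log2 fold change of the sums of -0.07 and a median level of 42.1 FPKM. The 40 tested without it had -0.08 and 59.4 FPKM. For CCGGAAG the median log2 fold changes of the sums were -0.09 (26 genes) and -0.07 (38 genes tested). These matches describe letters and say nothing of binding.

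Genes of ribosomal proteins outside the symbol rule were looked at as well. Fau, which carries Rps30, had a log2 fold change of 0.04 (SE 0.11, adjusted p = 0.844). Rack1, a signalling scaffold on the small subunit head, had 10894, 11320 and 11321 counts against 13704, 17203 and 16689 and fell by 0.33 (SE 0.10, adjusted p = 0.0495). The 78 mitochondrial ribosomal protein genes, which build the separate ribosome of that organelle, had a median log2 fold change of -0.18, with 4 lower and none higher. The 4 make up 5.13%, below the 9.06% of all genes that were lower. Mrpl14 fell by 0.55, Mrps35 by 0.49 and Mrpl9 by 0.43 on the log2 scale.

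Among 18 translation factors and other genes listed for TOP mRNAs, such as Eef1a1, Eef2 and Hnrnpa1, none was called by edgeR. Their median log2 fold change was -0.01. Eef1a1, which brings aminoacyl-tRNA to the ribosome, stood at 3215 ± 28.3 and 3065 ± 71.6 CPM (SD, n = 3). Of 25 other initiation and termination factors, 3 were higher and none lower (Etf1 by 0.54, Eif4a1 by 0.49 and Eif1 by 0.41). The 3 make up 12%, near the 11.1% of all genes that were higher. For these 3, MRL/lpr replicate 3 had the lowest count of its strain: Etf1, the release factor, had 9479, 9696 and 6698 counts against 6643, 6649 and 6722. Of 32 ribosome biogenesis factors, the nucleolar GTPase gene Gnl3 rose by 0.56 (adjusted p = 0.0301, edgeR) and the export adaptor gene Nmd3 by 0.51 (adjusted p = 0.0111, edgeR), and none was lower. Here too MRL/lpr replicate 3 was the lowest of its strain: Gnl3 had 3151, 3675 and 2048 counts against 2153, 2236 and 2362, and Nmd3 had 2019, 2139 and 1465 against 1434, 1380 and 1614. These 2 make up 6.25% of the list. Of 14 RNA polymerase I and III genes, Polr3e fell by 0.31. The 8 snoRNA host genes of the TOP class gave no call, with a median of 0.12.

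Of 17 genes that control TOP mRNAs or ribosome supply, 3 were higher, or 17.6% against 11.1% of all genes. Mxd4 and Mxd1, antagonists of Myc, rose by 1.23 (SE 0.13, adjusted p = 0.000199) and 0.84 (SE 0.07, adjusted p = 4.46e-05). Mtor, the kinase itself, rose by 0.30 (SE 0.09, adjusted p = 0.0373). Larp1, the repressor of TOP mRNAs, had 5425, 4963 and 5089 counts in MRL/lpr and 5834, 5835 and 9253 in MRL/mpj, with MRL/mpj replicate 3 far above the other libraries, and a log2 fold change of -0.25 (SE 0.17, adjusted p = 0.381). Myc had 0.26 (SE 0.08, adjusted p = 0.059). Of 11 genes listed for ribosome surveillance, not all of which clear stalled ribosomes, Zfp622 rose by 0.50 and Ascc3 by 0.37, and Nemf fell by 0.32. That is 18.2% higher and 9.09% lower, against 11.1% and 9.06% of all genes.

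Markers of other cells moved between the strains, and their part in the values above was not tested. The shares of all genes to read these counts against are 11.1% higher and 9.06% lower. All 20 mitotic genes were higher, with a summed level of 317.5 to 337.2 CPM in MRL/lpr against 80.2 to 87.4 in MRL/mpj. Of 8 T cell markers 6 were higher (17.0 to 25.1 against 5.001 to 5.63 CPM), and of 6 plasma cell markers 2 were higher (176 to 197 against 148 to 157 CPM). Most of the plasma cell sum came from Xbp1 (mean 104 against 89.7 CPM) and Prdm1 (58.1 against 49.3 CPM), which were not called. The 2 called were Jchain (15.6 against 1.23 CPM) and Mzb1. Sdc1 and Tnfrsf17 had log2 fold changes of -0.04 and -0.39, without a call. Of 7 choroid and ependyma markers 5 were lower (342 to 356 against 1025 to 1104 CPM), and of 8 neuron markers 2 were lower (15.3 to 18.8 against 33.4 to 37.7 CPM). Of 12 microglia markers 2 were lower and none higher, at 24940 to 28430 against 28250 to 29090 CPM, so microglia markers were present in each library. Of the remaining lists, 3 of 8 neutrophil, 3 of 6 monocyte, 1 of 6 erythrocyte and 1 of 6 endothelium markers were higher. Lower were 1 of 6 monocyte, 2 of 6 border macrophage, 1 of 8 oligodendrocyte, 1 of 7 astrocyte and 1 of 6 endothelium markers, and none of 5 B cell markers was called, with Cr2 at the floor of 3 counts. Mzb1, a plasma cell marker, was at 0 in the MRL/mpj libraries. Summed levels of the neutrophil list were 571 to 655 CPM against 446.6 to 507 CPM, and those of the monocyte list 75.6 to 84.8 against 82.9 to 89.8 CPM. Astrocyte markers summed to 116 to 162 CPM against 195 to 201 CPM.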

How the data were processed

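RNA-seq of CD11b-selected brain cells was analysed, 3 libraries per strain. Per the labels, libraries were made with a stranded total RNA kit after removal of ribosomal RNA, and the submitters' processing notes name GRCm38, cutadapt 1.9.3, HISAT2 2.0.4, Cufflinks and Cuffdiff 2.2.1. The counting tool and its use of multiply aligned reads and of strand are not given in the sources used here. The authors deposited raw counts per gene (45481609 to 49846634 per library), the unit tested here, and FPKM values normalized by them for gene length and depth, used for levels and in limma alternatives on log2(FPKM + 0.1) and log2(FPKM + 1). Symbols came from GENCODE M21, which matched 55141 of 55401 identifiers.

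Counts were tested with edgeR 4.0.16 (R 4.3.3), with filterByExpr (minimum count 10, minimum total 15), TMM, robust dispersions and the quasi-likelihood test, without covariates. Common biological coefficient of variation was 0.26. The steps were tested on simulated data, drawn with a lower dispersion than the common one of these libraries. No reads shared between a gene and its copies were simulated, so that test does not cover them. Rows nearly identical to a gene were found with blastn 2.17.0 against GENCODE transcripts, a step chosen after seeing the data.

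Named were the largest called changes without overlap between strains, the 5 genes of highest FPKM, the 5S, stalk, paralog, signalling and X chromosome genes, genes at the floor of 3 counts, and up to 3 called genes per other list. Rpl41, Rpl15, Rps9, Rpl27, the pseudogene rows, Rpl22 and Rps27 beside their paralogs, and genes with low row shares or replicate swings (Rpl21, Rpl29, Rps18, Rpl34, Rps13 and Rpl31) were added after their values were seen. The members and all lists were chosen with earlier results of these data known. Alternatives were DESeq2 1.42.0, limma 3.58.1, other scalings and filters, dispersions not robust, a length and GC correction, a replicate block, counts divided by 4, and leaving out each library. With 3 libraries against 3, no exact permutation test gives a p below 0.1. A gene of a companion list is not reported here.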

Additional observations from a re-analysis of the deposited data

How the results depend on the processing

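The median log2 fold change of the ribosomal protein genes stayed negative in every alternative run, from -0.211 with library-size scaling to -0.0387 without MRL/lpr replicate 2. Calls by adjusted p were 1 higher and 10 lower. Shares of all genes called were taken only for the main fits of rows and sums, so counts under other settings stand without one. DESeq2 gave 2 higher, library-size scaling 0 higher and 23 lower, limma on log2(FPKM + 0.1) 0 and 21, limma on log2(FPKM + 1) 0 and 20, and sums with nearly identical rows 0 and 3 under both the usual and the looser limits (85% identity, 50% of the row). Leaving out each library gave 0 to 2 higher and 5 to 21 lower. The 5 decreases of at least 2-fold became 3 with no low count filter, 0 in the sums under both limits, and 3 to 4 without each library. For the sums (0 higher, 3 lower), DESeq2 gave 1 and 6, library-size scaling 24 lower and a median of -0.203, the length and GC correction 11 lower, and leaving out each library 0 to 2 higher and 0 to 18 lower. The share of counts (1.23% and 1.44%) was 1.31% and 1.54% without mitochondrial genes and the top noncoding row, 2.33% and 2.57% of summed FPKM, and 1.62% and 1.83% with nearly identical rows. The causes of these differences were not tested, apart from the sums, which hold more rows by construction.

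Replicate numbers did not pair the samples: deviations of same-numbered libraries had correlations of -0.0543, -0.0312 and -0.0633 over 19554 genes, and no library correlated best with its own number. With a replicate block 1 gene was higher and 9 lower, and 1 sum was lower.

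Between row and sum, 11 of 84 genes changed sign. Among called rows these were Rps2 (0.20 under both limits) and Rplp0 (0.16, looser 0.17), and among the others the largest turn was that of Rpl34, from 0.25 to -0.08. Among the named genes, the turns under other settings were in genes that were not called. Library-size scaling gave -0.09 for Rps15, -0.08 for Rpl11, -0.05 for Rpl7l1 and -0.09 for Rpl13a. limma gave -0.11 and -0.11 for Rps15, -0.07 and -0.07 for Rpl11, -0.05 and -0.04 for Rpl7l1, and -0.09 and -0.09 for Rpl13a. The length and GC correction gave -0.07 for Rps15 and -0.02 for Rpl13a, and with the replicate block -0.08 and -0.02. The replicate block gave 0.03 for Rps27rt. Leaving out each library gave -0.18 to 0.16 for Rps15, -0.03 to 0.16 for Rpl11, -0.07 to 0.03 for Rpl12, -0.59 to 0.16 for Rpl39l, -0.34 to 0.20 for Rps27rt, -0.05 to 0.09 for Rpl13a and -0.09 to 0.01 for Rps4x.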
